A study of Mus musculus with 2 samples.

Results

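The genes described here are interferon-gamma and 9 genes of its pathway, 10 of the 35208 gene rows of a single-cell RNA-seq matrix from inflamed mouse ear skin. They were chosen by symbol and by their place in the pathway. They are Ifng, the cytokine itself, and Ifngr1, the ligand-binding chain of its receptor. Cxcl9 and Cxcl10 encode interferon-inducible chemokines and Cxcr3 encodes their common receptor. Iigp1, Irgm1 and Igtp encode immunity-related GTPases, and Gbp2 and Gbp4 encode guanylate-binding proteins. The cells came from BALB/c mice, WT or Ccr2-/-, sensitised with 300 µg of anti-TNP IgE given intravenously and challenged in the ear skin with 10 µg of TNP-OVA, a protocol that gives IgE-mediated chronic allergic inflammation (IgE-CAI). The 4 groups were WT on day 3 or on day 5 after challenge and Ccr2-/- on day 3 or on day 5. All were therefore sensitised and challenged, and no unchallenged skin was among them. Each group was 1 pool marked by its own hashtag antibody, and the labels do not give the mice per pool. A difference between 2 pools of the same day therefore had no replicate check.

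Interferon-gamma is made mainly by NK cells and by activated T cells. It binds a receptor found on most cells and acts through the kinases Jak1 and Jak2 on genes that carry gamma-activated sites in their promoters. Its target genes include chemokines that draw cells bearing Cxcr3 and GTPases that attack vacuoles holding microbes, and several of them also respond to type I interferons through interferon-stimulated response elements. Endothelial cells, fibroblasts and macrophages are known responders in skin.

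The promoters of the response genes are shown because they hold, or lack, the letters of these elements. Windows of 300 bases around the start site (250 before and 50 after) come from RefSeq on GRCm38.p6, and windows of 8 of the 10 genes were used. Those of Iigp1 and Gbp4 were not searched, so whether they hold these letters was not tested. The letters searched, on both strands, were TTC, any 3 bases and GAA for a gamma-activated site, and GAAA, any 2 bases and GAAA for an interferon-stimulated response element, and capitals mark each match. In the Irgm1 window 2 matches overlap by 4 bases.
Cxcl10 (chr5:92348840-92349139, minus strand): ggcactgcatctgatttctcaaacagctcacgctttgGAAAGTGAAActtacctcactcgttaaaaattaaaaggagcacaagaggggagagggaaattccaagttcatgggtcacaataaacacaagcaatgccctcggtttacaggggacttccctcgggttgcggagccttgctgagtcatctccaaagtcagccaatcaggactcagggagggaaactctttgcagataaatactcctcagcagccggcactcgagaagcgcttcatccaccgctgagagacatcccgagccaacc
Irgm1 (chr11:48871371-48871670, minus strand): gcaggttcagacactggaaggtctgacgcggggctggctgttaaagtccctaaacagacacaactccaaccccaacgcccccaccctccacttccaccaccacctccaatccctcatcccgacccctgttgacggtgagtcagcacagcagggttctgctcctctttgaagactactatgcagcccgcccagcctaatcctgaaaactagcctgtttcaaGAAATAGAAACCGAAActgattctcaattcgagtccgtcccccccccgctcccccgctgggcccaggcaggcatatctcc
Igtp (chr11:58199306-58199605, plus strand): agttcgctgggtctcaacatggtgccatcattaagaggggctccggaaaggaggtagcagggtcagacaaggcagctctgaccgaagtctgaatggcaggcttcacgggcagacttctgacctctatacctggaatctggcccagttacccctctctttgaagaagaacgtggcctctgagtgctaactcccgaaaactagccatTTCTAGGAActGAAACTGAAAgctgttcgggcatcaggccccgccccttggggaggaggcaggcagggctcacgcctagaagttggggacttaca
Gbp2 (chr3:142620413-142620712, plus strand): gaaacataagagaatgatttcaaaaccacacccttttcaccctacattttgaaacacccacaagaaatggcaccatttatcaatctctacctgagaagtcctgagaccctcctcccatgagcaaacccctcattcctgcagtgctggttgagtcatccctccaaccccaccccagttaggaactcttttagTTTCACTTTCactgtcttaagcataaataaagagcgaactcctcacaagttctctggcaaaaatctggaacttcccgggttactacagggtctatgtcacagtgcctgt
Of all 32851 windows in the table, 8.3% held the gamma-activated letters and 3.44% held those of the response element. The response-element letters were in the windows of Cxcl10, Irgm1, Igtp and Gbp2. In Irgm1 and Igtp they lay close to the start site, from 30 to 15 and from 34 to 25 bases before it. In Gbp2 the match, on the other strand, ran from 59 to 50 bases before the start, and in Cxcl10 from 213 to 204 bases before it. Igtp also held the gamma-activated letters, from 45 to 37 bases before the start. The windows of Ifngr1, Cxcl9 and Cxcr3 held neither string, and that of Ifng held only TTCAGAGAA, from 249 to 241 bases before the start.

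The matrix held 548117598 reads in 8953 barcodes, of which 8696 were also in the hashtag file and 7118 were kept and assigned to 1 pool (1037 to 2347 cells a pool). Values are reads and not molecules, so PCR copies count separately, and every interval here covers counting error only. Levels are CPM (counts per 1000000 reads) of the reads summed over a group of cells. They are not corrected for gene length, so they are compared between cells and not between genes. Cells were gated on marker genes that are not among the 10 genes. The 5 gates used here held 4032 cells: 290 NK, 146 T, 295 endothelial, 2375 fibroblast and 926 macrophage cells, while 1448 kept cells (20.3%) passed no gate. In each gate its own markers summed to more than those of any other list in every pool. Pericyte markers in the endothelial gate summed to 212 to 739 CPM, beside 4586 to 5071 for endothelial markers, and NK markers in the T gate to 84.2 to 748 CPM, beside 3638 to 5658 for T markers. The nearest approach was that of dendritic cell (DC) markers in the macrophage gate. These stood at 1429 and 1224 CPM in the WT pools and 310 and 457 CPM in the Ccr2-/- pools, beside 3968 to 6045 CPM for macrophage markers. Ccr2 in the macrophage gate was at 815 and 586 CPM in the WT pools and 44 and 36.4 CPM in the Ccr2-/- pools, as the labels give it.

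Ifng (chr10:118441046-118445894), the ligand, was read mostly in the NK gate. Of its 2354 reads in kept cells, 69.6% were in NK cells and 6.71% in T cells, 76.3% together (74.6 to 78.0, 95% exact binomial interval). Another 21.7% (510 reads) lay in 35 of the 1448 cells that passed no gate, and the fibroblast gate held 0.765%. A cell with both NK and T markers on could pass no gate, because a gate required a lead over the other lists. The type of these 35 cells was not tested, so the NK and T shares cover gated cells only. In the NK gate Ifng stood at 125 CPM in WT day 3, 305 in WT day 5, 168 in Ccr2-/- day 3 and 163 in Ccr2-/- day 5. The high value of WT day 5 came from 22 cells, 1 of which held 45.3% of the reads, and was 172 CPM without that cell.

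In the same order 25 of 47 NK cells had an Ifng read, then 8 of 22, 52 of 116 and 42 of 105. Over the 4 pools this was 127 of 290 NK cells (43.8%, 38.0 to 49.7) at a median of 23622 reads per cell. The share in fibroblasts, which should lack the gene, was 17 of 2375 cells (0.716%, 0.418 to 1.14) at a median of 95010 reads per cell. The NK share was therefore far above this background although NK cells were read less deeply. Among NK cells, 23 held 50% of the Ifng reads. With each cell thinned to 10000 reads the NK shares were 33.3%, 25.0%, 35.2% and 34.7%, and their intervals overlapped in all 4 pools.

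In the T gate Ifng was at 178 CPM in WT day 3, 3.90 in WT day 5, 2.62 in Ccr2-/- day 3 and 42.9 in Ccr2-/- day 5. These levels rest on 7, 1, 1 and 4 cells with a read, out of 37, 12, 54 and 43. In WT day 3 the top cell held 57.9% of the reads, and the level was at 77.8 CPM without it. The T cells with a read were 13 of 146 (8.90%, 4.83 to 14.7). Of the 41 T cells with the gamma-delta markers Trdc or Cd163l1 at 100 CPM or more, 1 had an Ifng read, against 12 of the other 105. The 3 target gates (endothelial, fibroblast and macrophage) held few Ifng reads: 2 in 295 endothelial cells, 18 in 2375 fibroblasts and 12 in 926 macrophage cells.

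**Figure D1:**
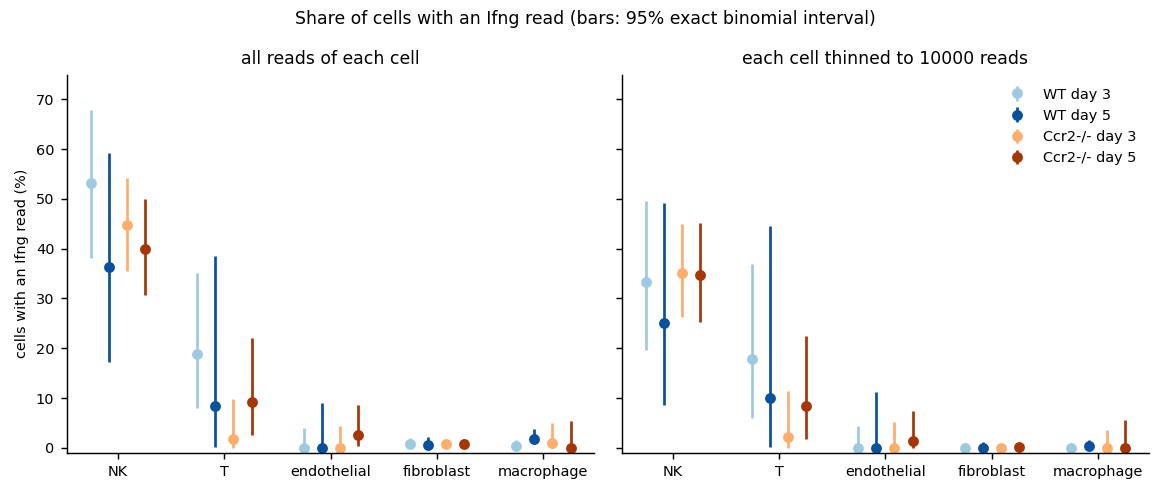
Share of cells with an Ifng read (y axis, percent) in the 5 marker gates (x axis) for the 4 pools, with all reads of each cell on the left and each cell thinned to 10000 reads on the right; bars are 95% exact binomial intervals. NK shares run from 36.4% to 53.2% unthinned and from 25.0% to 35.2% thinned, and the shares of the endothelial, fibroblast and macrophage gates lie near 0.

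Whether the genotypes differ in the share of lymphocytes that carry Ifng was tested in NK and T cells together at 10000 reads per cell. The share was 27.1% in WT day 3 (19 of 70 cells, 17.2 to 39.1), 20% in WT day 5 (6 of 30), 25.3% in Ccr2-/- day 3 (39 of 154) and 27.5% in Ccr2-/- day 5 (36 of 131). Day 3 of Ccr2-/- lay between the WT pools and day 5 just above them. The mean was 26.4% in Ccr2-/- and 23.6% in WT, a difference of 2.83 points that was not past the threshold (exact two-sided permutation test, p = 0.67, where 2 pools against 2 cannot go below 0.33). The difference was -1.15 points with all reads of each cell, and -0.74 points without WT day 5.

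Between gates, edgeR's quasi-likelihood test was run on the 20 sums of pool and gate with the pool as a block. These sums come from 4 pools on 1 chip, so the p-values measure the spread between these sums only. The mean of the log2 levels of the NK and T gates was compared with that of the 3 target gates. Ifng was higher in the lymphocyte gates (edgeR, adjusted p = 2.19e-09). No size is given, since 3 endothelial pools and 1 macrophage pool had no Ifng read and the fitted difference then depends on the prior count. Its reads were too few for a test within any target gate, so it entered this test through the lymphocyte gates, where it is high. Its p-value is therefore no independent support for the difference, and the count that follows includes it. Of the 10 genes, 9 differed in this comparison (5 higher, Ifng included, and 4 lower in lymphocytes), where 42.5% of all 15774 genes tested did. The calls of Cxcl9, Cxcl10 and Cxcr3 in this count carry a like limit, given below. The Ifng difference of NK minus T cells was a log2 of 2.40 ± 0.834 (SE), which was not past the threshold (edgeR, adjusted p = 0.0783). Without WT day 3, the pool with the T cell rich in Ifng reads, the difference was larger and its adjusted p was 0.0133 (0.0133 to 0.314 over 13 alternatives).

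The genes known to drive Ifng were listed separately. Of 8 such genes 7 were tested, and 5 were higher in lymphocytes than in the target gates by edgeR with Benjamini-Hochberg adjustment, while 1 was lower, where 42.5% of all genes differed. Only 1 of the 8 had enough reads for a test within endothelial cells, and 5 within each of fibroblasts and macrophage cells. Genes with few reads in a gate thus entered this comparison through the gates where they are high. These counts are therefore no independent support for a difference. Levels over the summed pools are given in place of fitted sizes, because sums with no read make those depend on the prior count. Tbx21, the transcription factor of type 1 lymphocytes, was at 105 CPM in NK and 34.9 CPM in T cells, and at 0.446 CPM or less in the target gates. Stat4, which relays interleukin-12, was at 308 and 55.8 CPM in NK and T cells and at 6.82 CPM or less in the target gates. Il18r1, a chain of the interleukin-18 receptor, was at 42.8 and 210 CPM in NK and T cells and at 1.21 CPM or less in the target gates. Il12rb2, a chain of the interleukin-12 receptor, was at 112 and 11.1 CPM in NK and T cells and at 2.66 CPM or less in the target gates. The 1 that was lower was Il18, the cytokine itself, with 2 reads in NK cells, none in T cells and 37.9 CPM in macrophage cells. Over 38 sums of gate and pool, the genes whose log2 CPM followed Ifng most closely among 16951 were Cysltr2 (Pearson's r = 0.94) and Tbx21, Cd96, Klrc1 and Fasl (each 0.93). The sums share cell types and pools, so these values only describe the pattern.

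The receptor chain Ifngr1 (chr10:19591949-19610229) was read in all 5 gates, with the highest levels in the gates that carried the ligand. In NK cells it was at 663 CPM in WT day 3, 655 in WT day 5, 468 in Ccr2-/- day 3 and 463 in Ccr2-/- day 5. In T cells it was at 568, 316, 527 and 498 CPM in the same order. Endothelial cells (63.4 to 87.2 CPM) and fibroblasts (88.5 to 127 CPM) were lower in every pool, with no overlap with the lymphocyte gates. The lymphocyte gates exceeded the target gates by a log2 of 2.21 ± 0.177 (edgeR, adjusted p = 1.43e-08).

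In macrophage cells Ifngr1 stood at 136 CPM in both WT pools, at 47.0 in Ccr2-/- day 3 and at 70.7 in Ccr2-/- day 5. Both Ccr2-/- pools were thus below both WT pools. Of 372 and 380 WT cells, 207 and 243 had a read, and of 108 and 66 Ccr2-/- cells, 55 and 36 had one. Over both days the difference was a log2 of -1.20 ± 0.22, past the threshold by DESeq2 (-1.19, adjusted p = 0.00132) but not by edgeR (adjusted p = 0.0892, from 1.4e-05 to 0.269 over the alternatives). The fit has 1 residual degree of freedom. DC markers in this gate moved the same way between genotypes, as given above. In the cells gated as DC, Ifngr1 was at 94.1 and 179 CPM in the WT pools and 28.8 and 68.4 CPM in the Ccr2-/- pools. The part of DC in the macrophage value was not tested. The paper also reports that classical monocytes and the macrophages derived from them were scarcer in Ccr2-/- skin. The macrophage gate may therefore hold a different mix of cells in each genotype. The part of this mix in the genotype differences of the gate, for Ifngr1 or any other gene, was not tested.

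Of the other genes of the receptor and its kinases, Jak1 was higher in lymphocytes than in the target gates by a log2 of 0.93 (edgeR, adjusted p = 9.93e-07). Ifngr2, the second receptor chain, was lower by -2.13 (adjusted p = 3.86e-05) and Jak2 by -1.08 (adjusted p = 0.000648). The 2 receptor chains thus lay in opposite directions, Ifngr1 higher and Ifngr2 lower in lymphocytes. Within lymphocytes Ifngr2 was lower in NK than in T cells (log2 of -2.34, edgeR, adjusted p = 0.00869).

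**Figure D2:**
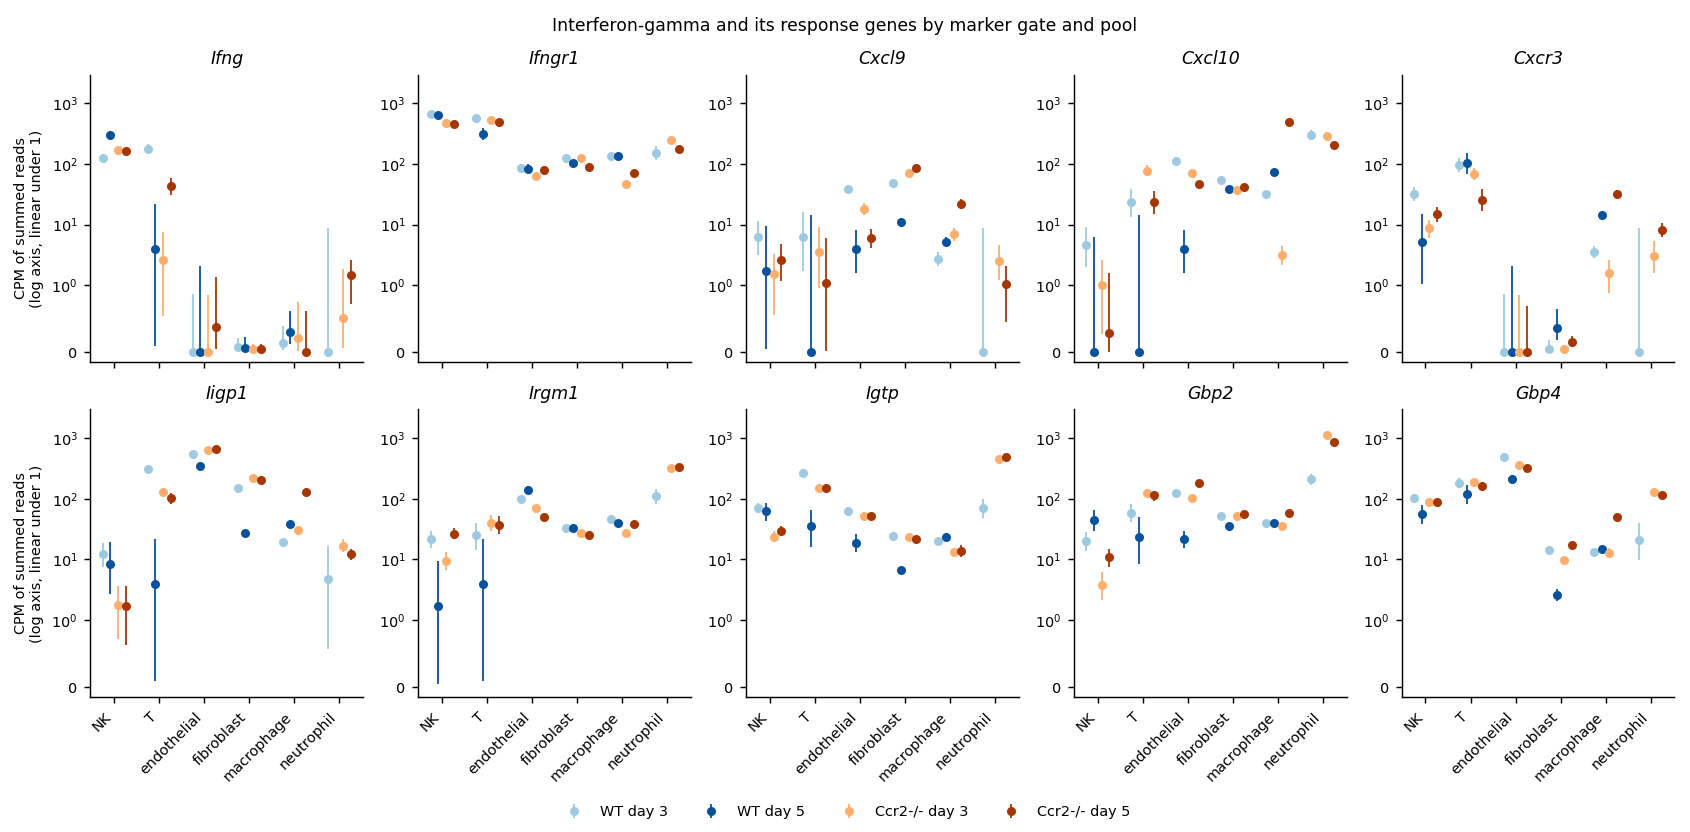
Levels of the 10 genes as CPM of summed reads (y axis, log scale, linear under 1) by marker gate (x axis) and pool (colour); bars are 95% exact Poisson intervals, and neutrophils of WT day 5 are left out because the pool held 4. Ifng lies above 2 CPM only in the NK and T gates, Ifngr1 is highest in the same gates, and the WT day 5 point is the lowest for 6 of the 7 response genes in the endothelial gate.

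Cxcl9 (chr5:92321331-92328079), a chemokine gene, had 83.8% of its 23941 reads in fibroblasts, a gate with 300195610 of the 468398572 reads of kept cells. This share was 49.7% in WT day 3, 34.9% in WT day 5, 93.2% in Ccr2-/- day 3 and 93.3% in Ccr2-/- day 5. In WT day 5 another 49.3% lay in 1 cell gated as pericyte. In WT day 3 the cells gated as DC were at 142 CPM, with 87.2% of their reads in 1 cell, and at 18.9 CPM without it. Its fibroblast level was 47.6 CPM in WT day 3, 11.1 in WT day 5, 69.7 in Ccr2-/- day 3 and 87.1 in Ccr2-/- day 5. The lowest pool was WT day 5. The reads were held by few cells: 309 of 2375 fibroblasts had a read, and 8 cells held 50% of all fibroblast reads.

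The fibroblast difference between genotypes depended on cells with many reads. Over both days the Cxcl9 difference (Ccr2-/- minus WT) was a log2 of 1.75 ± 0.619, not past the threshold (edgeR, adjusted p = 0.22). Without cells over 100000 reads Cxcl9 was at 81.0 (day 3) and 22.6 CPM (day 5) in WT, at 12.4 and 5.96 CPM in Ccr2-/-, and the difference was -2.39 (adjusted p = 0.0873, the lowest of the alternatives, up to 0.288). Such cells were 31.3% and 32.9% of the WT fibroblasts and 55.6% and 54.9% of the Ccr2-/- fibroblasts. With each cell thinned to 10000 reads, the share of fibroblasts with a Cxcl9 read was 7%, 2.56%, 6.08% and 6.30%, in which WT day 5 was again the lowest and the genotypes overlapped.

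In the endothelial and macrophage gates Cxcl9 rested on few cells. Endothelial cells stood at 38.5, 3.90, 18.2 and 5.97 CPM in the pool order used above, from 8, 3, 5 and 8 cells with a read, with 94.9% of the reads of Ccr2-/- day 3 in 1 cell. Macrophage cells stood at 2.72, 5.23, 6.89 and 21.9 CPM, from 10, 18, 5 and 10 cells with a read, with 91.0% of the reads of Ccr2-/- day 5 in 1 cell. Fibroblasts exceeded macrophage cells by a log2 of 2.33 ± 0.691 (edgeR, adjusted p = 0.0168). This call was lost without Ccr2-/- day 3 (adjusted p = 0.136) and without cells over 100000 reads (adjusted p = 0.289), and the lowest of the alternatives was 0.00215. NK cells had 27 Cxcl9 reads in 22 cells and T cells 9 reads in 6 cells.

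Cxcl10 (chr5:92346638-92348889) lies within the span of Art3, and whether the counting used strand is not given in the sources used here. It was spread over more gates than Cxcl9, with 46.9% of its 26645 reads in fibroblasts, 20.6% in macrophage cells and 10.5% in neutrophils. Another 15.7% lay in cells that passed no gate. Of the 468398572 reads of kept cells, fibroblasts held 300195610 and neutrophils 12039036, so these shares do not rank the levels of the gates. In fibroblasts its level was 53.6, 39.1, 37.7 and 42.3 CPM in the pool order used above, a narrower range than that of Cxcl9. In macrophage cells it was 32.1, 74.8, 3.13 and 494 CPM. The value of Ccr2-/- day 5 rests on 1 cell with 97.2% of the reads, and was 14.7 CPM otherwise. In WT day 5 the top cell held 49.1%, and the level was 38.3 CPM without it.

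In endothelial cells Cxcl10 was at 110, 3.90, 71.5 and 45.9 CPM, from 19 of 92, 5 of 39, 10 of 83 and 5 of 81 cells. WT day 5 was again the lowest pool, and 95.5% of the Ccr2-/- day 5 reads came from 1 cell. Lymphocytes were lower than the target gates for both chemokines (edgeR, adjusted p = 0.000224 for Cxcl9 and 0.00234 for Cxcl10). No size is given, since WT day 5 had no Cxcl9 read in T cells and no Cxcl10 read in either lymphocyte gate. Reads were too few for a test of Cxcl9 within NK or T cells and of Cxcl10 within NK cells. Both thus entered this comparison mainly through the target gates, where they are high, and these p-values are no independent support for the difference.

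Cxcr3 (chrX:101731535-101734147), the receptor of both chemokines, was not limited to lymphocytes. Of its 1442 reads, 23.3% were in NK and T cells, while the macrophage gate held 43.8% (41.2 to 46.4) and the DC gate 11.5%. In T cells it was at 96.7 CPM in WT day 3, 105 in WT day 5, 68.0 in Ccr2-/- day 3 and 25.7 in Ccr2-/- day 5. T cells had the highest CPM of the 5 gates in each pool but Ccr2-/- day 5, where macrophage cells were at 32.5 CPM. In NK cells it was at 32.2, 5.05, 8.60 and 14.8 CPM. The T cells with a read were 15 of 146, all of them among the 105 without gamma-delta markers. NK cells with a read were 14 of 290.

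In macrophage cells Cxcr3 was at 3.53 CPM on day 3 and 14.6 CPM on day 5 in WT, and at 1.57 and 32.5 CPM on the same days in Ccr2-/-. Both day 5 pools were above both day 3 pools. The cells with a read were 13 of 372, 39 of 380, 4 of 108 and 15 of 66, which made 7.67% (6.04 to 9.57) of the gate. In fibroblasts the share was 0.716% at a higher median depth. T markers in the macrophage gate summed to at most 24.4 CPM and NK markers to at most 29.5 CPM, while DC markers were higher in the WT pools. The day difference was a log2 of 3.08 ± 0.635, past the threshold by DESeq2 (3.12, adjusted p = 0.000183) but not by edgeR (adjusted p = 0.383, from 1.95e-07 to 0.999 over the alternatives).

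No endothelial cell had a Cxcr3 read (0 of 295 cells, which allows a share of cells with a read of up to 1.02%). Over the summed pools Cxcr3 was at 64.2 CPM in T cells, 14.8 in NK cells and 10.3 in macrophage cells. These levels were 335-fold, 77.3-fold and 53.8-fold above the level that 3 reads would give over the endothelial gate (0.191 CPM). Only the endothelial side is bounded in this way. The T level rests on 191 reads in 15 cells and the NK level on 145 reads in 14 cells. Lymphocytes exceeded the target gates (edgeR, adjusted p = 3.7e-06). With no endothelial read, Cxcr3 entered this comparison only through other gates, so that p-value is no independent support against the endothelial gate. Fibroblasts were below macrophage cells by a log2 of -6.18 ± 1.03 (edgeR, adjusted p = 0.000288). Cells with both an Ifng and a Cxcr3 read were 3 of 290 NK cells and 4 of 146 T cells.

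Among the target gates all 5 GTPases had their highest level over the summed pools in endothelial cells. Gbp4 (chr5:105115767-105139586), a guanylate-binding protein gene, separated the target gates most clearly. In endothelial cells it was at 487 CPM in WT day 3, 211 in WT day 5, 367 in Ccr2-/- day 3 and 321 in Ccr2-/- day 5. In fibroblasts it was at 14.6, 2.57, 9.74 and 17.5 CPM, and in macrophage cells at 13.3, 14.9, 12.8 and 50.6 CPM. The endothelial pools did not overlap those of either gate.

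Endothelial cells exceeded fibroblasts in Gbp4 by a log2 of 4.95 ± 0.431 (edgeR, adjusted p = 1.79e-07) and macrophage cells by 3.86 ± 0.414 (adjusted p = 1.41e-06). Both calls were kept under each of the 13 alternatives. Gbp4 was the only one of the 10 genes that differed between endothelial cells and fibroblasts, where 16.2% of all genes did. Fibroblasts were below macrophage cells by -1.08 ± 0.378 (adjusted p = 0.0425), a call lost in 10 of 13 alternatives. In lymphocytes Gbp4 was at 55.5 to 105 CPM in the NK pools and 121 to 187 CPM in the T pools, which is below the endothelial pools. Against the mean of the log2 levels of the 3 target gates, lymphocytes were higher by 1.23 (edgeR, adjusted p = 0.000476). That mean includes the low fibroblast and macrophage gates, so the call does not mean a level above every target gate.

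Iigp1, an immunity-related GTPase that coats vacuoles, had 74.3% of its reads in fibroblasts, the largest gate. Its endothelial level was 555, 355, 650 and 660 CPM in the pool order used above, and 167 of 295 endothelial cells had a read. Its fibroblast level was 152, 27.0, 220 and 207 CPM. In both gates the lowest pool was WT day 5, 8.12-fold below the highest in fibroblasts.

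In macrophage cells Iigp1 was at 19.8, 38.5, 30.7 and 131 CPM. The high value of Ccr2-/- day 5 fell to 55.2 CPM without its top cell, which held 59.8% of the reads. Endothelial cells exceeded macrophage cells by a log2 of 3.19 ± 0.713 (edgeR, adjusted p = 0.00252). With Gbp4 and Cxcr3 this made 3 of the 10 genes that differed between endothelial and macrophage cells, beside 23.3% of all genes. Cxcr3, with no endothelial read, entered this fit only through other gates, so its call is no independent support for the difference. Between fibroblasts and macrophage cells the 3 that differed were Cxcl9, Cxcr3 and Gbp4, beside 25.4% of all genes.

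The lymphocyte gates differed from each other in Iigp1. In the pool order used above T cells had 201, 1, 150 and 96 reads, and NK cells, which were more numerous, had 21, 5, 7 and 6. Leaving out WT day 5, with 12 T cells, the T pools were at 103 CPM or more and the NK pools at 12.1 CPM or less. NK cells were lower by a log2 of -4.69 ± 0.897 (edgeR, adjusted p = 0.00274). It was the only one of the 10 genes that differed between NK and T cells, where 9.57% of all genes did. With all pools Igtp (-1.54, adjusted p = 0.0644) and Gbp2 (-2.04, adjusted p = 0.0705) did not pass, and without WT day 5 both were also lower in NK cells (-2.18, edgeR adjusted p = 0.000568, and -3.17, adjusted p = 0.00138).

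Irgm1 (chr11:48865245-48871420), a regulator of the other immunity-related GTPases, varied less between the target gates than Gbp4 or Iigp1. Its level was 99.2, 143, 70.8 and 51.1 CPM in endothelial cells, 32.6, 33.1, 27.2 and 25.6 in fibroblasts and 47.5, 40.2, 27.3 and 38.7 in macrophage cells, in the pool order used above. In each of these gates the Ccr2-/- pools were below both WT pools, without overlap, and the log2 differences were -1.01, -0.29 and -0.39. None was past the threshold (edgeR, adjusted p from 0.294 to 0.749), where 0.0608%, 0% and 0.302% of all genes were. Its highest pool was WT day 5 in the endothelial and fibroblast gates, unlike the other GTPases. Lymphocytes were below the target gates by -1.41 ± 0.385 (edgeR, adjusted p = 0.00635).

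Igtp (chr11:58199556-58207592), of the same family, was at 267, 35.1, 153 and 151 CPM in T cells and at 71.3, 62.3, 23.8 and 29.8 CPM in NK cells. T cells had the highest level of the 5 gates in each pool but WT day 5, where NK cells were above them. Endothelial cells were at 62.1, 18.9, 52.9 and 51.5 CPM, fibroblasts at 24.3, 6.63, 23.1 and 22.2 CPM, and macrophage cells at 13.1 to 23.4 CPM. WT day 5 was the lowest pool in T cells, endothelial cells and fibroblasts and the highest in macrophage cells. Lymphocytes exceeded the target gates by a log2 of 1.43 ± 0.308 (edgeR, adjusted p = 0.00103).

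Gbp2 (chr3:142620663-142638008), a guanylate-binding protein gene that overlaps the microRNA gene Mir6381, was at 123, 21.7, 103 and 182 CPM in endothelial cells. In fibroblasts it was at 52.8, 35.8, 52.1 and 56.8 CPM, and in macrophage cells at 40.0, 39.5, 35.6 and 59.5 CPM. In the first 2 gates the lowest pool was WT day 5. Gbp2 was the only one of the 10 genes that did not differ between lymphocytes and target gates (-0.90 ± 0.409, edgeR, adjusted p = 0.086). Members of both GTPase families are close in sequence, and reads that the counting could split among them leave their levels uncertain.

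**Figure D3:**
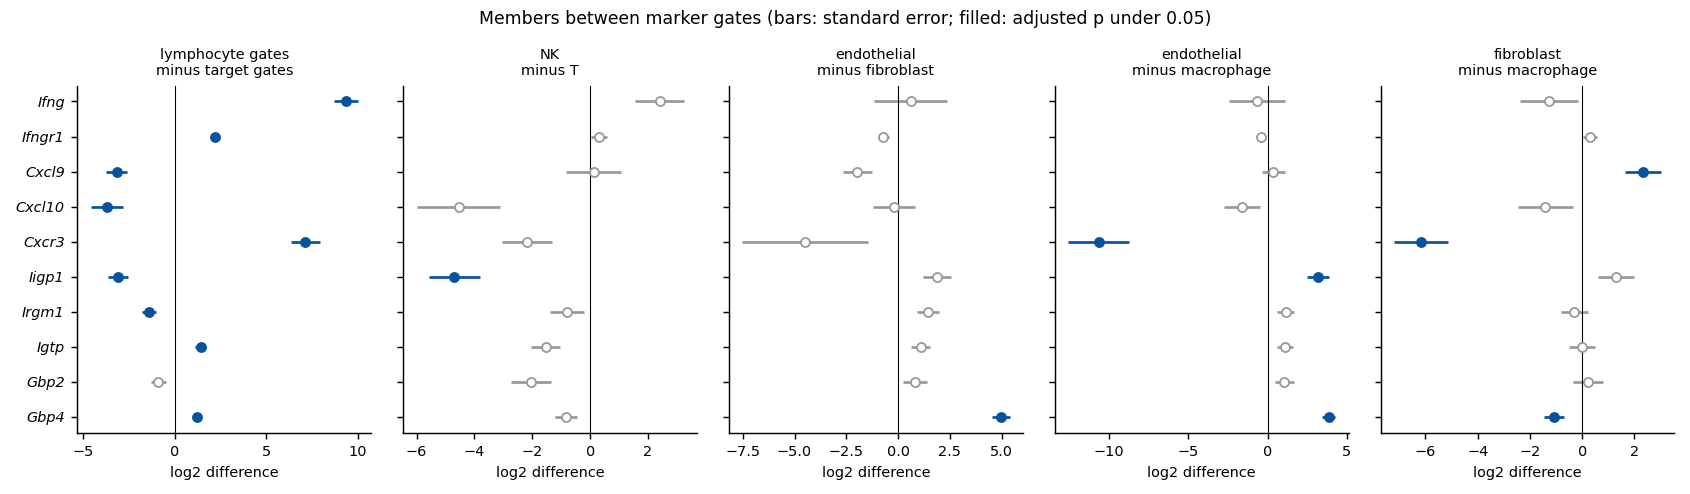
Log2 difference between gates (x axis) for the 10 genes (rows) in 5 comparisons from edgeR on 20 sums of pool and gate; bars are standard errors and filled points have an adjusted p under 0.05. Ifng, Ifngr1 and Cxcr3 are higher in lymphocytes and Cxcl9, Cxcl10 and Iigp1 are higher in the target gates. Values of Ifng, Cxcl9, Cxcl10 and Cxcr3 that involve a gate with no read in some pools depend on the prior count of the fit. Such values are no measure of size.

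Outside the 5 gates the GTPases were also read in neutrophils, which numbered 47, 4, 348 and 703 cells in the 4 pools and had a low depth (medians of 8210 to 10286 reads per cell). Leaving out WT day 5, Gbp2 stood there at 212 CPM in WT day 3, 1133 in Ccr2-/- day 3 and 874 in Ccr2-/- day 5. Irgm1 stood at 111, 325 and 337 CPM and Igtp at 70.8, 455 and 489 CPM. All 3 were lower in WT day 3 than in both Ccr2-/- pools, from 9, 10 and 2 WT cells with a read. Iigp1, by contrast, had 162 reads in 1102 neutrophils, and Ifng had 13. Neutrophils held 30.5% of all Gbp2 reads, 32.5% of Igtp reads and 20.5% of Irgm1 reads. No test was run in this gate, because WT day 5 had 4 cells.

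Further response genes of interferon-gamma were a list of 18. Of these, 11 were higher in endothelial cells than in fibroblasts and none lower (edgeR, Benjamini-Hochberg adjustment), where 16.2% of all genes differed, with a median log2 difference of 1.47 beside -0.12 over all genes. Tgtp1 and Tgtp2, near-identical immunity-related GTPases that share reads, were higher by 5.30 and 4.86, Gbp7 by 1.79 and Psmb9, a subunit of the immunoproteasome, by 1.53. Against macrophage cells 7 were higher in endothelial cells and 1 lower (median 0.62, beside -0.12), where 23.3% of all genes differed. Between fibroblasts and macrophage cells 6 of the 18 were lower in fibroblasts and none higher (median -1.05, beside -0.01 over all genes), where 25.4% of all genes differed. Between NK and T cells 6 were lower in NK cells and none higher, where 9.57% of all genes differed. Over the summed pools Gbp2b was at 10.1 CPM in NK and 100 CPM in T cells, and Gbp6 at 2.75 and 189 CPM. Tgtp1 was at 2.55 and 56.1 CPM and Tgtp2 at 3.77 and 87 CPM. In lymphocytes as a whole 5 were higher and 2 lower than in the target gates, a share no larger than the 42.5% of all genes that differed.

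A list of 7 genes known for their response to type I interferons was set beside these. None differed between endothelial cells and fibroblasts by edgeR with adjustment (median 0.11), where 16.2% of all genes did. Against macrophage cells 3 were lower in endothelial cells and 3 in fibroblasts, where 23.3% and 25.4% of all genes differed. Over the summed pools Mx1 was at 1.34 CPM in endothelial and 29 CPM in macrophage cells, and Oasl1 at 2.68 and 37 CPM. In lymphocytes 5 of 7 were lower than in the target gates and none higher, where 42.5% of all genes differed and 4499 of 15774 were lower. Only 3 of the 7 had enough reads for a test within NK cells and 2 within T cells. Within endothelial cells 6 had enough, and 7 in each of the other 2 target gates. Several thus entered the comparison through the target gates, where they are high, so this count is no independent support for a difference. Whether the 2 lists differ from each other was not tested. Over 38 sums of gate and pool, the genes that followed the mean log2 CPM of the 5 GTPases most closely were Gbp9 (r = 0.81), Gbp3 (0.77), and Gbp2b, Gbp5 and Xaf1 (0.73 each), and r with Ifng itself was 0.13.

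The question of whether the genotypes or days differ in these genes was put to each gate separately, in a fit of 4 pools with both terms and 1 residual degree of freedom. By edgeR's quasi-likelihood test with Benjamini-Hochberg adjustment, none of the 10 genes differed between genotypes in any gate. Genes with too few reads were not tested: Ifng in the endothelial, fibroblast and macrophage gates, Cxcr3 in endothelial cells, Cxcl9 in NK and T cells and Cxcl10 in NK cells, which left 43 tests. At an unadjusted p under 0.05 there were 6. Under that p lay 5.64% of all genes in NK, 2.99% in T, 6.11% in endothelial, 20.9% in fibroblast and 16.2% in macrophage cells. DESeq2 called 2 (Ifngr1 and Iigp1, both in macrophage cells, where DESeq2 called 747 of all 15915 genes). Over all genes the genotype test of edgeR called 0.027% in NK, 0.0244% in T, 0.0608% in endothelial, 0% in fibroblast and 0.302% in macrophage cells. Few genes of any kind passed, so the count of 0 is near the background.

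Of the 6, those of Ifngr1 in macrophage cells, Cxcl9 in fibroblasts and Irgm1 in endothelial cells are given above. The Iigp1 difference (Ccr2-/- minus WT) was a log2 of 1.75 ± 0.616 in fibroblasts (edgeR, adjusted p = 0.22) and 1.25 ± 0.315 in macrophage cells (adjusted p = 0.154, from 0.00045 to 0.679 over the alternatives, with 0.0115 by DESeq2). That of Cxcl9 in macrophage cells was 1.75 ± 0.46 (edgeR, adjusted p = 0.164, from 0.0247 to 0.966 over the alternatives, with log2 differences from 0.37 to 3.67), and 91.0% of its reads in Ccr2-/- day 5 were in 1 cell. The mix of cells in the macrophage gate may differ between genotypes, as said above for Ifngr1. In fibroblasts 20.9% of all genes had an unadjusted p under 0.05 between genotypes, and cells over 100000 reads were more frequent in Ccr2-/-.

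Between days, likewise, edgeR called none of the 10 genes in 43 tests, with 9 at an unadjusted p under 0.05. Under that p lay 3.48% of all genes in NK, 2.55% in T, 3.91% in endothelial, 5.84% in fibroblast and 9.39% in macrophage cells. DESeq2 called 2 (Cxcr3 and Iigp1 in macrophage cells, where DESeq2 called 175 of all 15915 genes). Over all genes the day test of edgeR called 0.018% in NK, 0.0244% in T, 0.00761% in endothelial, 0% in fibroblast and 0% in macrophage cells. In endothelial cells Cxcl9 (-2.36 ± 0.818), Cxcl10 (-2.30 ± 0.781) and Gbp4 (-0.67 ± 0.295) had log2 differences (day 5 minus day 3) below 0, each with an edgeR adjusted p of 0.999. In macrophage cells the differences were above 0, for Iigp1 (1.52 ± 0.316, adjusted p = 0.383, from 1.44e-05 to 0.999 over the alternatives, with 0.00278 by DESeq2), Cxcl9 (1.29 ± 0.455, adjusted p = 0.474) and Cxcl10 (3.84 ± 1.47, adjusted p = 0.512). The others of the 9 were Cxcr3 in macrophage cells, given above, Ifngr1 in fibroblasts (-0.40, adjusted p = 0.816) and Iigp1 in T cells (-2.46, adjusted p = 0.999). Without cells over 100000 reads the Cxcl9 differences turned to 0.54 in endothelial cells and -0.90 in macrophage cells. Whether the day effect differs between the gates was not tested.

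The order of the pools is given as a description that was added after the data were seen. It covers genes at 10 CPM or more in at least 1 pool. Among the 7 response genes (chemokines and GTPases), WT day 5 was the lowest pool for 6 in endothelial cells, where it was the lowest for 36.7% of all genes, and for 5 in fibroblasts, against 37.0% of all genes. In T cells it was the lowest for 6 of 6, against 42.3%, from 12 cells. In NK cells it was the lowest for 2 of 5, against 38.9%, and in macrophage cells for 0 of 7, against 31.1%. In macrophage cells the lowest pool was Ccr2-/- day 3 for 5 of 7, against 28.2% of all genes.

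The 18 further response genes are given in the same way. WT day 5 was the lowest pool for 9 of 9 in fibroblasts, 11 of 15 in endothelial cells, 10 of 14 in T cells and 6 of 12 in NK cells, and Ccr2-/- day 3 was the lowest for 11 of 15 in macrophage cells. Of the type I genes, WT day 5 was the lowest for 2 of 5 in fibroblasts, 0 of 5 in endothelial cells, 4 of 5 in T cells and 2 of 4 in NK cells, and Ccr2-/- day 3 was the lowest for 7 of 7 in macrophage cells. Genes of a list share cells and are not replicates. WT day 5 also had the fewest cells of any pool in the NK (22), T (12), endothelial (39) and fibroblast (334) gates, but the most in the macrophage gate (380). In NK cells the same pool had the highest Ifng level, 305 CPM, or 172 CPM without its top cell.

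Within fibroblasts the other response genes were read more often in cells with a Cxcl9 read than in cells without one. At 10000 reads per cell, 141 fibroblasts had a Cxcl9 read and 2123 had none. This was a separate random thinning, of fibroblasts alone, so its counts per pool differ somewhat from the Cxcl9 shares given above. Iigp1 was read in 69.5% of the former (61.2 to 77.0) and 23.1% of the latter (21.3 to 25.0). Gbp2 was read in 49.6% against 16.9%, Irgm1 in 33.3% against 14.2%, Igtp in 31.2% against 7.72%, Cxcl10 in 29.8% against 7.40% and Gbp4 in 19.9% against 3.11%. The intervals of these 6 genes did not overlap. Most fibroblasts with a read of these genes had none of Cxcl9, however, as 491 of the 589 with an Iigp1 read.

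Ifngr1, which is not a response gene in this sense, was read in 53.2% (44.6 to 61.6) of the fibroblasts with a Cxcl9 read and 45.5% (43.3 to 47.6) of those without, with overlapping intervals. Set beside Iigp1, with more cells, it was read in 53.7% (49.5 to 57.7) of 589 fibroblasts with an Iigp1 read. Of the 1675 without one the share was 43.2% (40.8 to 45.6), with no overlap. A higher share beside another of the 10 genes was thus not limited to response genes. For Iigp1 the share was higher beside Cxcl9 in each pool, at 67.9% against 24.1% in WT day 3, 28.6% against 10.5% in WT day 5, 71.7% against 29.8% in Ccr2-/- day 3 and 73.6% against 20.2% in Ccr2-/- day 5. WT day 5 rests on 7 cells with a Cxcl9 read. Cells of 1 pool are not replicates, and the intervals cover counting error. Before thinning, the cells with a Cxcl9 read had a median of 159890 reads and the others 98120, and the part of cell size or of barcodes holding more than 1 cell was not tested.

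**Figure D4:**
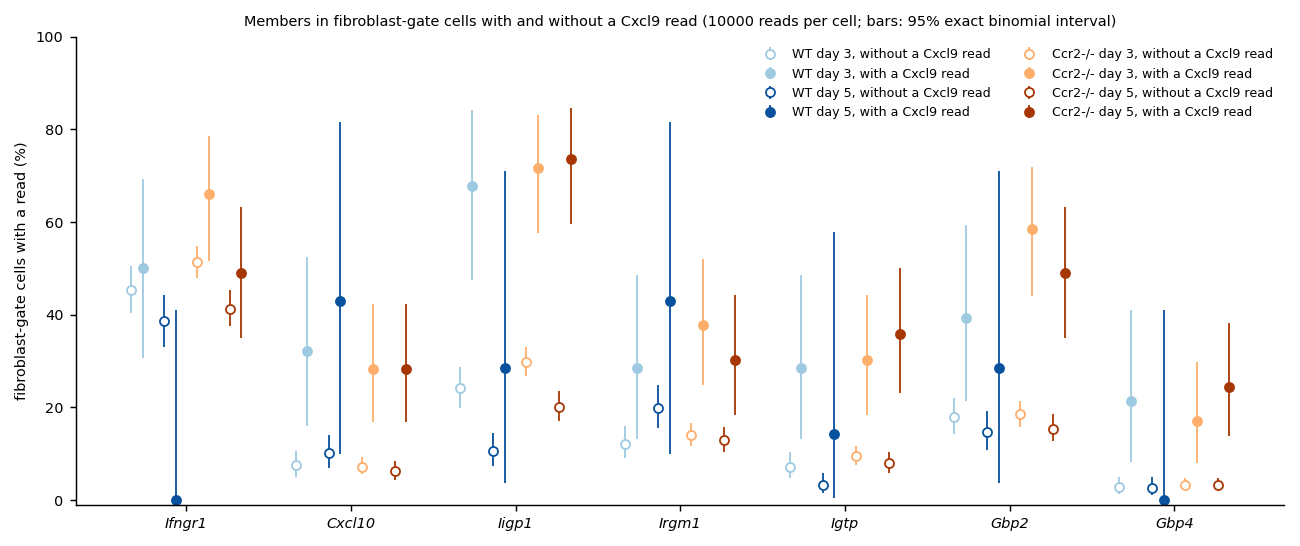
Share of fibroblast-gate cells with a read of each gene (y axis, percent) among cells with (filled) and without (open) a Cxcl9 read in the 4 pools, each cell thinned to 10000 reads; bars are 95% exact binomial intervals. For Iigp1 the filled points lie at 28.6% to 73.6% and the open ones at 10.5% to 29.8%, and for Ifngr1 the 2 overlap.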

How the data were processed

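The authors made a cDNA library and a hashtag library from the same cells by TAS-Seq on BD Rhapsody, trimmed reads with Cutadapt and aligned them with Bowtie2 to mouse transcripts of Ensembl on GRCm38.p6. The deposited values are counts of reads per gene and barcode and per hashtag and barcode. The background correction in their methods was not visible in these values. There were 9 further hashtag columns, which were not used.

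Barcodes were given to the hashtag that was at least 3 times the next after scaling (pseudocount of 1 read), with at least 10 hashtag reads, at most 20% mitochondrial reads and at least 200 genes. Barcodes with several hashtags (570) were left out, and no other doublet call was made. A marker was on at 100 CPM. A cell entered the gate with at least 0.5 of its markers on and a lead of 0.25 over any other list. Each pool held 68064673 to 162572556 reads.

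Tests were edgeR 4.0.16 (quasi-likelihood, TMM, filterByExpr, Benjamini-Hochberg over all genes tested, threshold 0.05) on reads summed per pool and gate. DESeq2 1.42.0 was an alternative. The fits were tested on simulated data. Shares carry exact binomial and CPM exact Poisson 95% intervals, and a count of 0 was set against 3 reads. The 10 genes and the other lists were chosen with earlier results of these data known. The genes named were the 10, at most 4 of each other list (those with the lowest adjusted p between gates) and the 5 most like Ifng or the GTPase mean by Pearson's r of log2(CPM + 1), with further list genes named after their values were seen. Positions are those of RefSeq on GRCm38.p6. Not all genes of the receptor and signal list are reported here.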

Additional observations from a re-analysis of the deposited data

How the results depend on the processing

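Of 33 differences of single genes under 443 alternatives, 415 kept their direction and side of the threshold, 12 lost a call, 13 gained one and 3 reversed, each of these for Cxcl9 without cells over 100000 reads (day, endothelial 0.54; day, macrophage -0.90; genotype, fibroblast -2.39). The cause was not tested. Of the 150 levels with at least 20 reads, 41 were over 1.5 times lower without the cell richest in the gene, a step that can hardly raise a level. With cells thinned to 10000 reads 14 were higher and 15 lower by that much, and without cells over 100000 reads 9 and 20.

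The genotype test called 0 of the 10 genes, 2 by DESeq2 and 3 with no filter on low counts. It called 61 genes in all, 2577 by DESeq2, 2485 with no filter, 199 with DESeq2 size factors, 183 by library sizes, 139 at a hashtag ratio of 10, 26 without cells over 100000 reads, 22 at a marker limit of 50 CPM and 0 with no covariate. The day test called 0 of the 10, 2 by DESeq2 and 4 with no filter, and 5 genes in all, against 331 by DESeq2, 515 with no filter, 22 at a hashtag ratio of 10, 13 at 200 CPM, 11 by library sizes, 8 at 50 CPM, 1 at a lead of 0.5 (4 gates tested, since the T gate then held too few cells in WT day 5) and 0 with no covariate. With 3 pools these fits have no residual degree of freedom, so pools left out there give values without a test.

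Between NK and T cells the call of 1 of the 10 genes became 5 by DESeq2, 4 with no filter, 3 with DESeq2 size factors, 2 at a hashtag ratio of 10, at 50 CPM and without cells over 100000 reads, and 1 to 3 with a pool left out. The 1509 genes became 2546 by DESeq2 and 686 to 1644 with a pool left out. They became 1369 with no filter, 1469 with DESeq2 size factors and 1277 at a hashtag ratio of 10. At 50 CPM they became 1560, and without cells over 100000 reads 1091. Between endothelial cells and fibroblasts 1 became 3 by DESeq2, by library sizes and with no filter. It became 2 at a lead of 0.5, at 50 or 200 CPM and without cells over 100000 reads, and 1 to 2 with a pool left out. The 2555 genes of this comparison became 3253 by DESeq2, 2622 by library sizes and 2860 with no filter. They became 2279 at a lead of 0.5, 2562 at 50 CPM, 2491 at 200 CPM and 2109 without cells over 100000 reads. With a pool left out they became 1687 to 2242. Between endothelial and macrophage cells 3 became 5 by DESeq2 and 3 to 5 with a pool left out. The 3682 genes of this comparison became 4690 by DESeq2 and 2598 to 3347 with a pool left out. Between fibroblasts and macrophage cells 3 became 1 without cells over 100000 reads and 1 to 3 with a pool left out. The 4002 genes of this comparison became 3557 without cells over 100000 reads and 2925 to 3619 with a pool left out. The genotype difference in the share of cells with an Ifng read (2.83 points) was -1.15 unthinned and -0.74 to 6.4 with a pool left out. No paired analysis was possible because there was 1 pool per genotype and day. The pool was a block in the comparisons of gates.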
